A study of Mus musculus with 16 samples.

Results

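The libraries described here were the 3 of 11, among control and Nfkbid transgenic mice, chosen by the measured level of the interferon-inducible gene Ifit1, which stood at 50 CPM or more. They were set against the 8 libraries below that value. CPM is the estimated count of a gene per 1000000 counts of its library. Ifit1 encodes a protein that binds foreign RNA and is among the genes most strongly induced by type I interferon. The 3 high libraries were control replicate 2, at 68.2 CPM, and transgenic replicates 3 and 5, at 143 and 66.7 CPM. The 8 low libraries were control replicates 1, 3, 4, 5 and 6, at 5.60, 4.23, 2.23, 3.70 and 1.75 CPM, and transgenic replicates 1, 2 and 4, at 17.6, 9.66 and 9.32 CPM. Ifit1 (ENSMUSG00000034459) lies on chromosome 19, 34640871 to 34650009 (GENCODE M21, GRCm38). No library lay between 17.6 and 66.7 CPM. Because Ifit1 split the libraries, its own difference is no result, and the groups high and low are not groups of the study.

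All cells were live CD4+CD8+ double-positive thymocytes, sorted by flow cytometry, 1 library per mouse, from mice 6 to 7 weeks of age. Every mouse was of the strain NOD-AI4, a diabetes-prone NOD line whose thymocytes bear a transgenic receptor taken from AI4, a self-reactive clone of CD8 cells. Controls (6 mice) carried nothing further, and NOD-AI4-60A mice (5) carried an Nfkbid transgene. The series also holds 5 mice of the genotype NOD-AI4-Nfkbid-/-, for 16 libraries in all. The Nfkbid protein, IκBNS, acts in the nucleus, where it modifies the expression of NF-kB target genes. The labels name neither the transgene's promoter, what 60A stands for, nor the deleted allele. The 3 high libraries were all from males, and the low ones were from 3 males (control replicates 1 and 3, transgenic replicate 4) and 5 females. The labels do not say whether the mice shared litters, cages or days. The identifiers of the controls begin differently from those of every other mouse, so genotype and identifier series cannot be told apart.

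Library totals were 20848140 to 26586220 estimated counts in high libraries, 17955743 to 25894334 in low libraries and 21662210 to 35637813 in knockout-labelled libraries. Nfkbid was at 28.5 to 37.1 CPM in low controls and 32.0 in control replicate 2. In knockout-labelled libraries it was at 27.9 to 38.6 CPM, so the counts do not show the ablation, and these libraries are called by their label. The double-positive genes Cd4 and Cd8a stood at 707 to 1060.4 and 1803 to 2379.8 CPM in high libraries against 675 to 1144 and 1533 to 2284 in low ones. Xist, the RNA of the inactive X chromosome, was at 0.304 to 1.11 CPM in the 6 libraries labelled male and at 2208 to 3095 in the 5 labelled female.

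Type I interferons are secreted proteins made when sensors detect foreign or misplaced nucleic acid. They bind the receptor IFNAR1-IFNAR2, and the kinases JAK1 and TYK2 then activate STAT proteins, which join IRF9 in a complex that binds the interferon-stimulated response element (ISRE) of target genes. The targets include enzymes that block viral RNA, GTPases that attack intracellular pathogens, and the sensors and transcription factors of the pathway itself. In the thymus, interferons are made at low levels without infection, and epithelial and dendritic cells are among the known sources.

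The core of the ISRE is a pair of GAAA blocks with a spacer of any 2 bases, read as TTTC blocks on the other strand. It was searched on both strands of RefSeq promoter windows (GRCm38.p6, 250 bases before to 50 after the start of the gene), with overlapping matches allowed. The stretches below show it in genes from the groups described next: the gene that split the libraries, a ubiquitin-like modifier, an RNA sensor enzyme, an antiviral enzyme, a GTPase, the light chain of class I molecules, and a gene outside the interferon lists. Each is written 5′ to 3′ on the strand of the gene, and capitals mark the matches.
Ifit1 (chr19:34640774-34640843, plus strand): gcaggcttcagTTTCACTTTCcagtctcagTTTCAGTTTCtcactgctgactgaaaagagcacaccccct
Isg15 (chr4:156200845-156200914, minus strand): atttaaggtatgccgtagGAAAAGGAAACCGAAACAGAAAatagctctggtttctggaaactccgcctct
Oas1a (chr5:120907526-120907569, minus strand): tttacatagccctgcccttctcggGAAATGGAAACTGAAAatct
Rsad2 (chr12:26456533-26456602, minus strand): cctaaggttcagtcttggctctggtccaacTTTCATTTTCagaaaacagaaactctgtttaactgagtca
Irgm1 (chr11:48871421-48871474, minus strand): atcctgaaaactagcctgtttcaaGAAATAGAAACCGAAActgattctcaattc
B2m (chr2:122147518-122147587, plus strand): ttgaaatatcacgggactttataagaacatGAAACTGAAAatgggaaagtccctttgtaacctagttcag
Ifi214 (chr1:173535997-173536066, minus strand): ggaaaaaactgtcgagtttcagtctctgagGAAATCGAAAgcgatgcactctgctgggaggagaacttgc
Isg15, Irgm1 and Oas1a show overlapping matches that run together into longer blocks, while Rsad2, B2m and Ifi214 show single ones.

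High and low libraries differed mainly in 1 direction: genes of the interferon response were higher in the high libraries, by up to 4.55 on the log2 scale, and almost nothing was lower. With genotype as covariate, edgeR's quasi-likelihood test called 165 of 14384 genes higher at an adjusted p under 0.05, or 1.15% of the genes tested, and 2 lower, or 0.0139%, with Ifit1 left out. Of the genes called higher, 98 were higher by over 2-fold. The median log2 difference over all genes tested was -0.0049. Of the 165, 127 had every high library above every low one, while 1.21% of all genes tested had this order. Without control replicate 2 the test called 109 genes in either direction in place of 167, and with genotype left out 101. In bulk RNA a stronger response in every cell and a larger share of responding cells cannot be told apart.

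Sex coincides with this split, since every high mouse was male. With sex added to the fit, 120 genes were called higher, or 0.834%, and 117 of the 167 genes kept their call. Among males alone (3 high, 3 low), 74 genes were called higher, or 0.502%, on fewer libraries. All 165 genes were above 0 in that fit, with a median log2 difference of 1.21 against 1.14 over all 11 libraries. In 136 of the 165 the 3 high males lay above the 3 low males, an order that 3.73% of all genes showed. The 165 genes were picked by a fit that held these same males, so their sign and order among males describe the split. Sex and litter effects beyond these values were not tested.

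In all, 10 lists of interferon genes, from the ligands to the targets, held 210 genes matched in the files, of which 159 passed the filter on low counts, with Ifit1 left out. Of these, 103 were called higher and 0 lower, their median log2 difference was 0.78, and 96 had every high library above every low one. The libraries were split on a member of this program, so these counts describe the split and support nothing by themselves, and no p of this comparison is given for the genes of these lists. The other 51 genes did not pass the filter, most of them at or near 0 in all libraries. With sex added 82 of the 159 were called higher, and among males alone 40. The plot of list members by group shows the IFIT and OAS families farthest to the right and the receptors and kinases at 0.

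**Figure D1:**
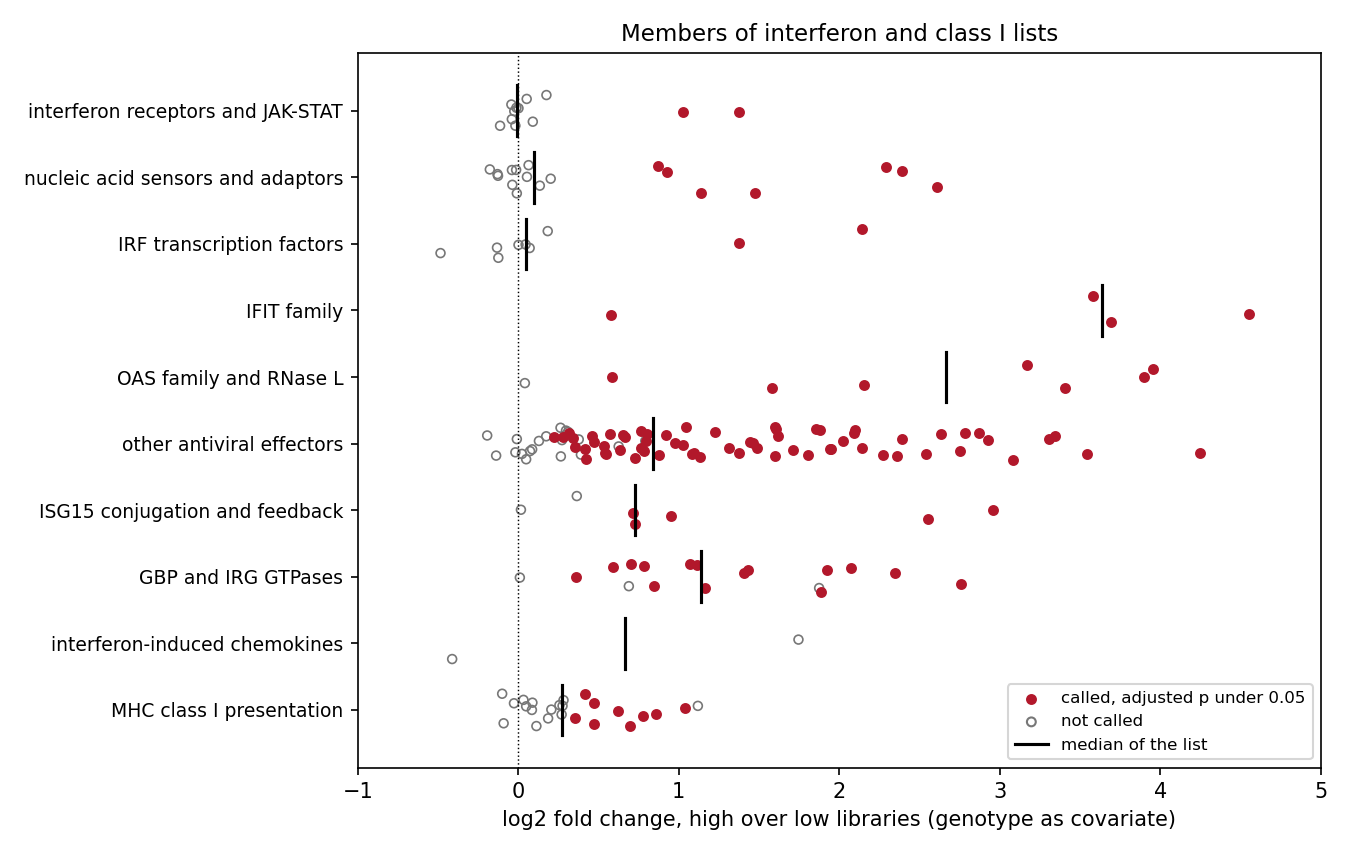
Log2 fold change of high over low libraries (x axis) for the tested members of each list (y axis), with genotype as covariate. Filled red points were called (edgeR adjusted p under 0.05), open points were not, and black bars mark list medians, from 3.63 for the IFIT family to -0.0048 for receptors and JAK-STAT.

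The ligands themselves were at or near 0. None of 21 interferon genes passed the filter, and 16 of them, Ifnb1 and most alpha interferons included, were at 0 in all 11 libraries. Their summed level was 0.0752 to 0.0959 CPM in high libraries and at most 0.240 CPM in low ones. The high range lay within the low one, and RNA of cells outside the sort was not measured.

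Of 12 tested receptor and JAK-STAT genes 2 were called higher, among them Irf9, which binds target promoters in the complex and is itself induced. Irf9 stood at 127 CPM in control replicate 2 and at 189.8 and 142 in transgenic replicates 3 and 5. The low controls had 48.2, 44.3, 39.8, 45.1 and 46.9 CPM and the low transgenics 77.2, 61.1 and 66.1, so the high libraries did not overlap with the low ones (log2 fold change 1.38, SE 0.10). Stat2, its partner in the complex, was at 83.8 to 90.9 CPM in high and 69.1 to 92.1 in low libraries and was not called (0.18, SE 0.08).

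The receptor chains and kinases were not called. Ifnar1 was at 164 CPM in control replicate 2 and 166 and 171 in the high transgenics, against 156 to 181 in low libraries (-0.02, SE 0.05). Ifnar2 (-0.11, SE 0.08), Jak1 (0.00, SE 0.08) and Tyk2 (-0.01, SE 0.08) gave differences near 0 too, as did the interferon gamma receptor chains Ifngr1 (0.05) and Ifngr2 (-0.02).

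**Figure D2:**
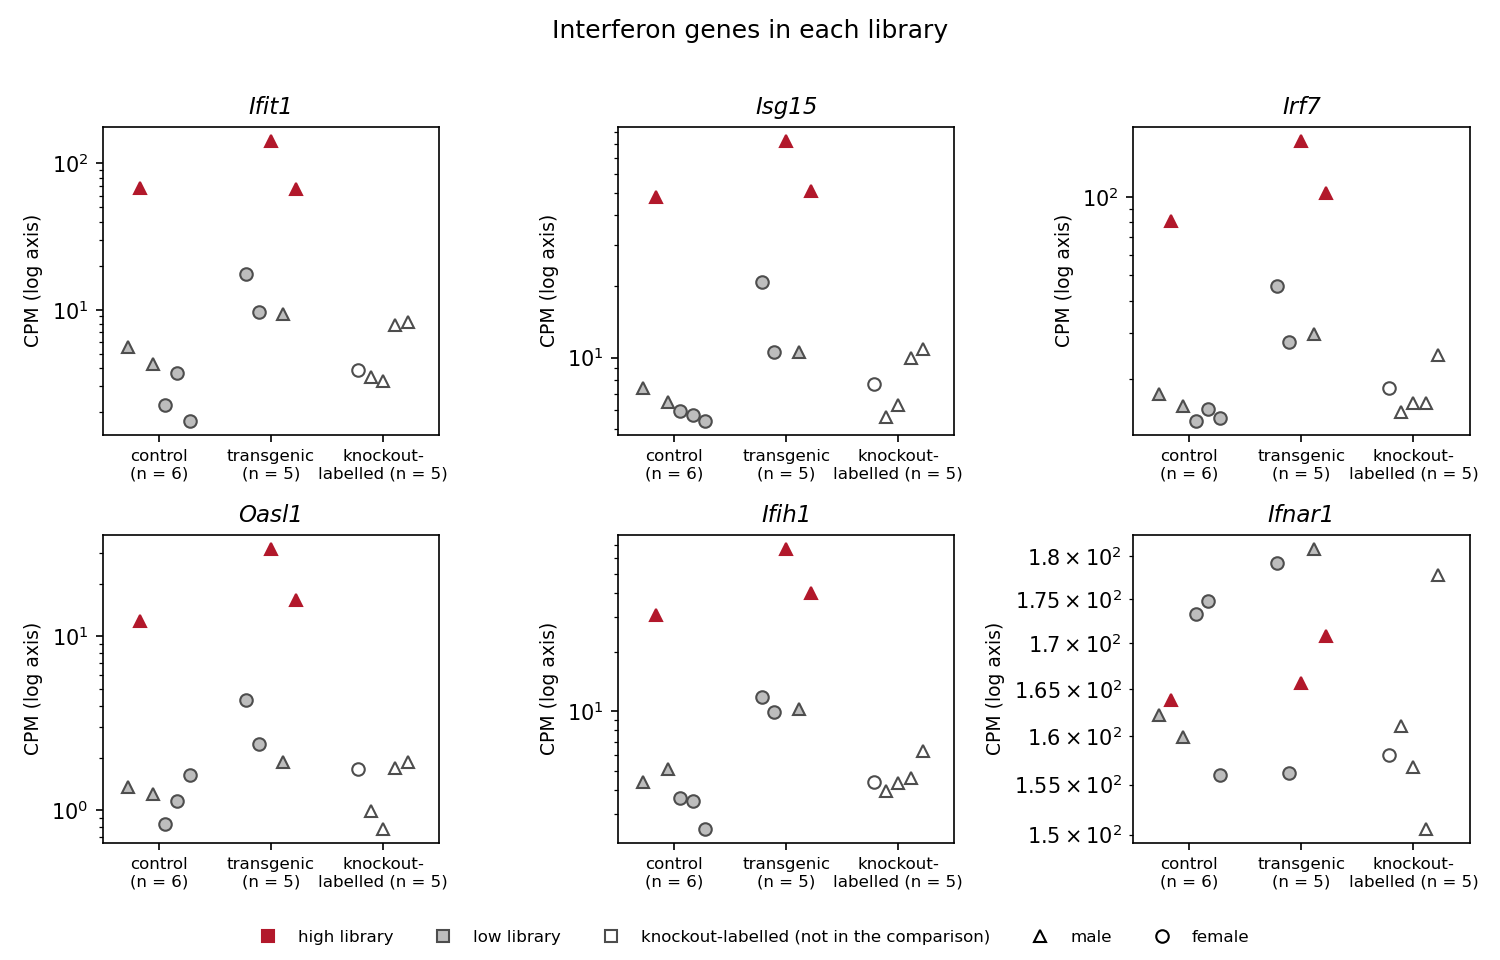
CPM (log axis, range set for each gene) of Ifit1, Isg15, Irf7, Oasl1, Ifih1 and Ifnar1 in each library, by genotype, with 1 point per mouse; red marks the high libraries, and triangles mark males. Ifit1 defines the colours; Isg15, Irf7, Oasl1 and Ifih1 place the same 3 libraries on top, while Ifnar1 mixes them.

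Of 9 IRF transcription factors, which switch on interferon genes and their targets, Irf7 and Irf9 were called higher. Irf7, the factor that amplifies interferon production, was at 80.7 CPM in control replicate 2 and 164 and 103 in the high transgenics. In the low groups it was at 17.5, 15.8, 13.9, 15.4 and 14.2 CPM (controls) and 45.4, 27.8 and 29.8 CPM (transgenics), without overlap with the high libraries (2.14, SE 0.17). Irf1, which interferon gamma induces strongly, was at 80.7 CPM in control replicate 2 and 124 and 135 in the high transgenics, inside the range of 63.2 to 136 of the low libraries (0.05, SE 0.11). Irf2 (0.18, SE 0.06), Irf3 (0.07, SE 0.05) and Irf8 (0.00, SE 0.14) were not called either, nor was Irf4, which antigen receptor signals induce (-0.48, SE 0.19).

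Sensors of foreign nucleic acid fell into a set with clear differences and a set near 0. Of 18 tested, 7 were called higher: the RNA helicases Ifih1, Ddx58 and Dhx58, the endosomal RNA receptor Tlr7, the Z-nucleic acid sensor Zbp1, the RNA-editing enzyme Adar and the RNA-activated kinase Eif2ak2. Ifih1, which encodes the long-RNA sensor MDA5, was at 30.8 CPM in control replicate 2 and 66.9 and 40.1 in the high transgenics, against 4.36, 5.07, 3.62, 3.49 and 2.54 in low controls and 11.8, 9.95 and 10.2 in low transgenics (2.61, SE 0.19). Dhx58 (2.39, SE 0.18) and Tlr7 (2.29, SE 0.28) differed by a like amount, and Eif2ak2 (1.48, SE 0.12), Zbp1 (1.14, SE 0.09), Ddx58 (0.93, SE 0.08) and Adar (0.87, SE 0.09) by less. In each of the 7 every high library lay above every low one. All 7 were also called with sex added, and 4 among males alone. The adaptors Mavs (-0.13), Myd88 (0.13) and Ticam1 (-0.04), the DNA sensor Cgas (0.06), its partner Tmem173, which encodes STING (-0.13), and the kinase Tbk1 (0.05) were not called.

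The IFIT proteins, which bind viral RNA, were all called higher where tested (4 of 4, median log2 difference 3.63). All 4 kept their call with sex added, and 0 were called among males alone. Ifit3 was at 23.8 CPM in control replicate 2, 78.0 and 29.8 in the high transgenics, 1.59, 2.40, 1.67, 1.56 and 1.22 in low controls and 7.33, 3.11 and 2.81 in low transgenics (3.69, SE 0.33). Ifit1bl1 (3.58, SE 0.35) and Ifit3b (4.55, SE 0.50) showed differences of like size; Ifit3 and Ifit3b are near-identical copies whose reads the counting could split, so each is uncertain alone. Ifit2 was high in every library and differed least, at 67.7 CPM in control replicate 2 and 96.9 and 78.6 in the high transgenics against 44.8 to 58.1 in low libraries (0.58, SE 0.08).

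The oligoadenylate synthetases make a second messenger that triggers the breakdown of viral RNA. All 7 tested genes of the OAS family were called higher, 6 of them also with sex added and 1 among males alone. Oas1c, which differed least (0.59), lost its call with sex added and in 8 of the 11 fits with 1 library left out. Oas1a showed 8.05 CPM in control replicate 2 and 52.96 and 23.6 in the high transgenics, against 0.348, 0.838, 0.501, 0.322 and 0.212 in low controls and 3.74, 2.28 and 1.83 in low transgenics (3.96, SE 0.30). Oas2 (3.90, SE 0.33), Oasl2 (3.40, SE 0.28), Oasl1 (3.17, SE 0.25), Oas3 (2.16, SE 0.17) and Oas1b (1.58, SE 0.10) followed. Oas1b, annotated as a polymorphic pseudogene, lay at 26.1 to 43.8 CPM in high and 7.28 to 13.96 CPM in low libraries. Copies of the Oas1 group are similar in sequence, so reads could be split among them.

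Of 84 other antiviral effectors tested, 64 were called higher and 0 lower, and 80 were above 0 (median 0.84). The number called higher was 49 with sex added and 26 among males alone. Mx1, a dynamin-like GTPase that blocks influenza viruses, was at 15.3 CPM in control replicate 2, 42.2 and 17.6 in the high transgenics, 0.591, 0.574, 0.618, 0.537 and 0.212 in low controls and 3.37, 0.994 and 2.10 in low transgenics (4.25, SE 0.36). Rsad2, which encodes viperin, an enzyme that makes a chain-terminating nucleotide, was at 35.1 CPM in control replicate 2 and 60.3 and 27.9 in the high transgenics, against 0.741 to 2.95 in low controls and 2.94 to 9.27 in low transgenics (3.54, SE 0.40). Rnf213, a large ubiquitin ligase, was at 978 to 1467 CPM against 275 to 529 (1.60, SE 0.11). The ligase partner Parp9 (1.08, SE 0.07), the ADP-ribosyltransferase Parp12 (1.46, SE 0.11), the exonuclease Isg20 (2.10, SE 0.14) and Bst2, which tethers budding virus to cells (2.27, SE 0.19), were higher as well. In all of these the high and low libraries did not overlap. The 20 that were not called included Apobec3, a cytidine deaminase (-0.01), and Ly6e, a surface protein (0.07).

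ISG15, a ubiquitin-like protein that interferon induces, is joined to other proteins by a chain of enzymes and removed by USP18, which also blocks IFNAR2 signalling. Isg15 was at 47.8 CPM in control replicate 2 and 82.9 and 51.0 in the high transgenics, against 7.41, 6.47, 5.96, 5.70 and 5.40 in low controls and 20.8, 10.6 and 10.6 in low transgenics (2.55, SE 0.23). Usp18 was at 53.9 CPM in control replicate 2 and 106 and 63.4 in the high transgenics, against 6.78, 7.33, 4.40, 6.60 and 3.82 in low controls and 19.7, 9.01 and 8.34 in low transgenics (2.96, SE 0.28). The conjugating ligase Herc6 (0.95, SE 0.10), the activating enzyme Uba7 (0.72, SE 0.10) and the carrier Ube2l6 (0.73, SE 0.13) were also called higher. Ube2l6 lost its call with sex added, among males alone, and without control replicate 2 or transgenic replicate 3. The JAK inhibitors Socs1 (0.36, SE 0.20) and Socs3 (0.02, SE 0.18) were not.

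The guanylate-binding and immunity-related GTPases attack vacuoles of intracellular pathogens and respond to both interferon types. Of 18 tested, 15 were called higher, and 11 had no overlap between high and low libraries. Calls numbered 11 with sex added and 7 among males alone. Irgm1, which keeps the other members off the cell's own membranes, was at 70.7 CPM in control replicate 2, 138 and 101 in the high transgenics, 25.1, 21.3, 20.5, 19.9 and 20.4 in low controls and 55.8, 49.6 and 48.6 in low transgenics (1.43, SE 0.11). Iigp1, a GTPase that coats pathogen vacuoles, was at 13.3 CPM in control replicate 2, 72.9 and 39.6 in the high transgenics, 0.657, 0.679, 0.390, 0.806 and 0.106 in low controls and 13.9, 18.5 and 14.1 in low transgenics (2.76, SE 0.46). Its high control thus lay below the low transgenics, so the split for this gene shows within genotypes only. Its call was lost with sex added and without any 1 of control replicates 3 and 5 and transgenic replicates 3 and 4. Within both genotypes, 17 of the 18 had the high libraries above the low ones, against 3.14% of all genes tested. Gbp9 (1.12, SE 0.08) and Igtp (1.07, SE 0.10) were higher, while Gbp5 (0.69, SE 0.16), Gvin1 (1.87, SE 0.50) and Gbp8 (0.01, SE 0.12) were not called.

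Interferon-induced chemokines were near the floor. Only 2 of 7 were tested, and neither was called. Cxcl10, which draws activated T cells, was at 1.09 CPM in control replicate 2, 2.09 and 1.63 in the high transgenics and 0.0537 to 1.05 in low libraries (1.75, SE 0.44), with the high libraries above the low ones at under 3 CPM. Ccl5, the other gene tested, was at 0.376 CPM in control replicate 2. The high transgenics had 1.02 and 1.25 CPM of Ccl5, within the 0.106 to 3.36 CPM of low libraries (-0.41, SE 0.45).

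MHC class I presentation, which loads peptides from inside the cell for CD8 T cells, was partly higher. Of 24 genes tested, 9 were called higher and 0 lower (8 with sex added): H2-K1, H2-D1, B2m, Tap1, Tapbp, H2-Q4, H2-Q7, H2-T23 and H2-T24. Over all genes tested 1.15% were called higher. Without control replicate 2 the calls of H2-K1, B2m, H2-Q7 and H2-T23 were lost. Among males alone those of H2-K1, B2m and H2-T24 were lost. The median log2 difference of the list was 0.27. H2-T24 was the only one of the 24 whose high libraries all lay above the low ones, an order that 1.21% of all genes showed. Within both genotypes 13 had the high above the low, against 3.14% of all genes tested.

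H2-K1, a classical heavy chain, was at 83.5 CPM in control replicate 2 against 41.3, 33.1, 35.5, 39.6 and 50.6 in low controls, and at 241 and 218 in the high transgenics against 149, 136 and 135 in low ones (0.86, SE 0.12). H2-D1, the other classical heavy chain here, was at 216 CPM in control replicate 2 against 119.8, 106, 102, 108 and 115 in low controls, and at 522 and 479 in the high transgenics against 346, 302 and 316 in low ones (0.78, SE 0.07). For both chains every low transgenic exceeded the high control. B2m, the shared light chain, was at 373 CPM against 212 to 259 in controls and at 865 and 685 against 457 to 559.9 in transgenics (0.62, SE 0.10). Reads of the heavy chain genes can be shared among near-identical copies, and NOD mice carry another H2 haplotype than the reference strain, so these levels are uncertain gene by gene.

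The peptide transporter gene Tap1 (0.47, SE 0.06) was called higher, whereas Tap2, its partner, was not (0.05, SE 0.07). Psmb9, a catalytic subunit of the immunoproteasome, was at 34.0 CPM against 28.6, 25.7, 29.0, 28.0 and 24.5 in controls and at 63.9 and 66.8 against 66.1, 55.4 and 62.5 in transgenics, with the transgenic groups overlapping (0.19, SE 0.07). Psmb8 (0.11, SE 0.06) and Psmb10 (0.26, SE 0.07) were likewise not called. Nlrc5, the transactivator of class I genes, was at 44.7 CPM against 8.69 to 17.3 in controls and at 141 and 139.5 against 91.3 to 93.9 in transgenics; it was higher within both genotypes but not called (1.12, SE 0.25, edgeR adjusted p = 0.0889).

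**Figure D3:**
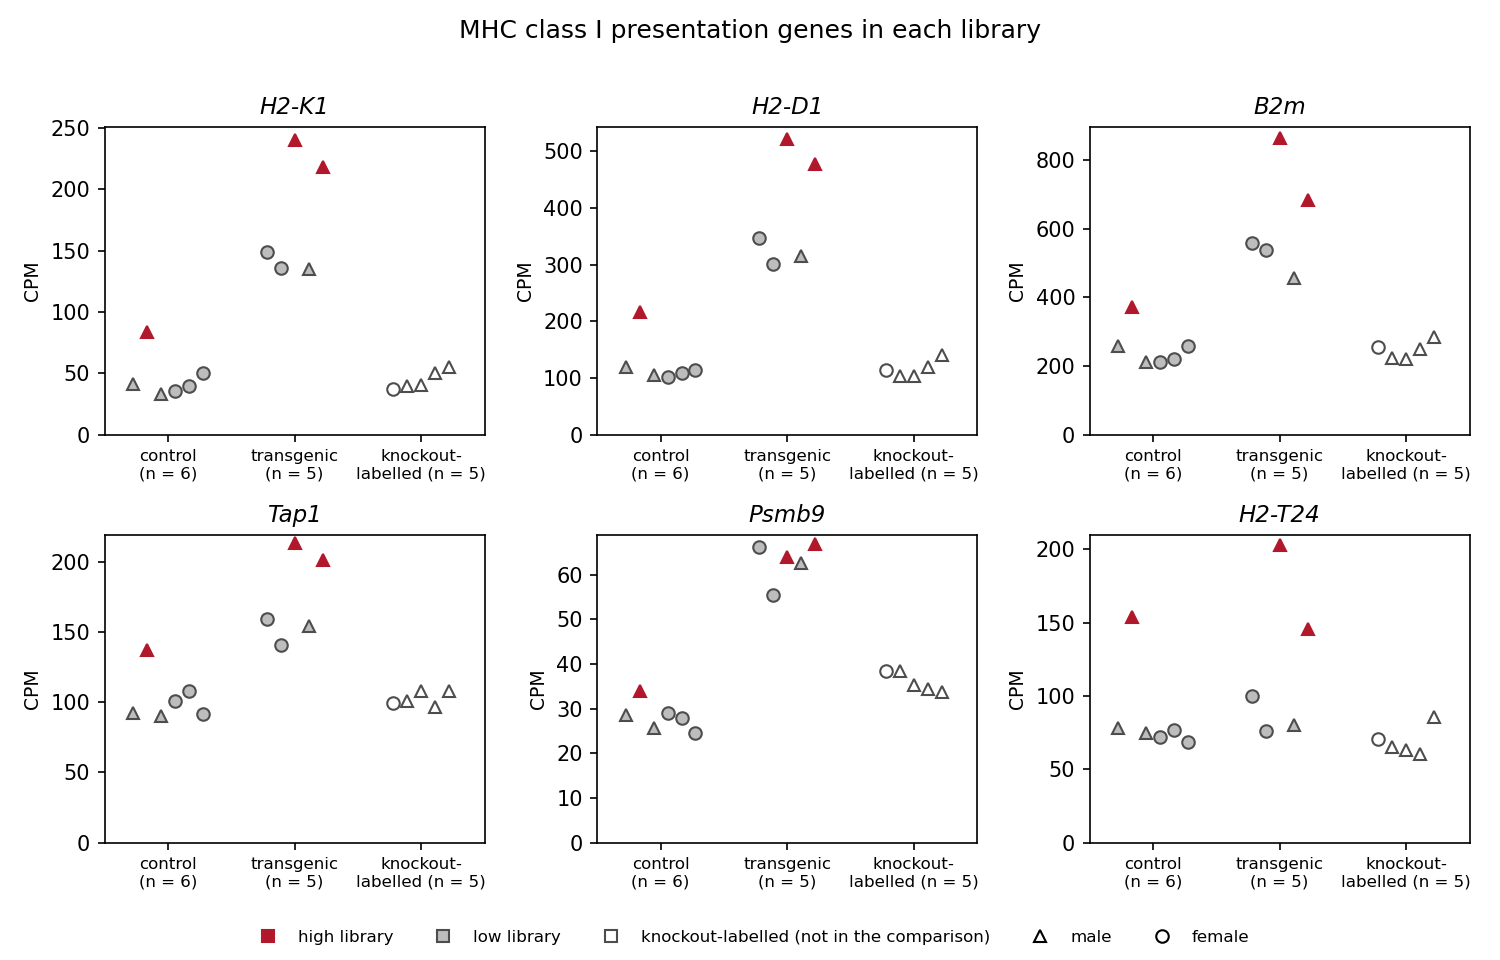
CPM of 6 class I presentation genes in each library, by genotype, with 1 point per mouse; red marks the high libraries, and triangles mark males. For H2-K1, H2-D1, B2m and Tap1 the red points top their own genotype while the transgenics lie above the controls; for Psmb9 the transgenic points mix; H2-T24 separates high from low across genotypes.

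Outside the interferon lists 62 genes were called higher, 34 of them also with sex added, and 2 were called lower. These p-values are from edgeR and adjusted over all genes, and they carry the same limit that the libraries were split on a gene of the same data. The 62 included the 9 class I genes above, and some of the rest are interferon-inducible in other settings although no list held them. Ifi214, of the interferon-inducible p200 family of DNA-binding proteins, had the largest difference among those with an established symbol and a mean of at least 1 CPM, at 7.12 CPM in control replicate 2, 25.6 and 9.51 in the high transgenics, 1.33, 1.07, 1.27, 0.681 and 0.539 in low controls and 3.19, 1.81 and 1.54 in low transgenics (2.94, SE 0.31, edgeR adjusted p = 0.000178, and 0.0122 with sex added). Its promoter stretch is printed above; copies of this family share sequence, so reads could be split.

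Wnk3, a kinase that controls chloride transport, was next, at 9.58 CPM in control replicate 2, 12.9 and 5.80 in the high transgenics, 3.31, 2.57, 2.64, 2.06 and 2.88 in low controls and 1.85, 2.33 and 2.80 in low transgenics (1.93, SE 0.22, edgeR adjusted p = 0.000176, and 0.00713 with sex added). The high and low libraries did not overlap, and here the low transgenics were not above the low controls. C2, a protease of the complement cascade, was at 1.43 CPM in control replicate 2, 3.03 and 2.63 in the high transgenics, 0.372 to 0.702 in low controls and 0.755 to 1.14 in low transgenics (1.58, SE 0.21, edgeR adjusted p = 0.000745, and 0.00599 with sex added). Hsh2d, an adaptor of lymphocyte signalling (1.19, SE 0.14, edgeR adjusted p = 0.000224, and 0.00625 with sex added), and Ogfrl1 (1.26, SE 0.17, edgeR adjusted p = 0.00104, and 0.011 with sex added) also rose. Psme2b (1.39, SE 0.26, edgeR adjusted p = 0.0156) and Hap1 (1.17, SE 0.26, edgeR adjusted p = 0.0467) were called without sex in the fit but not with it (adjusted p = 0.195 and 0.165). Chosen after their values were seen, Mov10, an RNA helicase that restricts retroviruses, was at 59.4 to 92.7 CPM in high and 30.1 to 53.3 in low libraries (0.84, SE 0.08), and Agrn, a matrix proteoglycan, at 44.1 to 64.1 against 18.7 to 28.9 (1.10, SE 0.15).

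For both genes called lower the high and low libraries overlapped. Zfp704, a zinc finger gene, was at 78.1 CPM against 101, 92.8, 94.6, 90.5 and 95.7 in controls and at 76.2 and 93.1 against 112, 109 and 111 in transgenics (-0.35, SE 0.06, edgeR adjusted p = 0.00688, and 0.0345 with sex added). Within each genotype the high libraries were the lowest, and across genotypes they overlapped. The call of Zfp704 held in 18 of 27 alternatives. Those that lost it included males alone, genotype left out, and the fits without control replicate 2 or transgenic replicate 3. Ncf4, a subunit of the phagocyte oxidase, was at 0.376 CPM against 1.12, 0.718, 1.06, 1.45 and 1.38 in controls and 1.54 and 1.30 against 2.88, 2.86 and 2.53 in transgenics (-1.14, SE 0.25, edgeR adjusted p = 0.0463), and it was not called with sex added (adjusted p = 0.331).

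The ISRE core was found in a larger share of the called genes than of all promoters. Of 123 genes called higher that had a promoter window, 49 held the ISRE core, or 39.8%, against 3.44% of all 32851 windows and 3.90% of the 9636 tested genes with a window. The share was 51.9% of 79 called genes of the interferon lists, 33.3% of 45 list genes that were tested and not called, and 18.2% of 44 called genes outside the lists. Among the 8 called class I genes with a window only B2m, printed above, and H2-T23 held it. The core of the gamma-activated site, TTCNNNGAA, was in 16.3% of the 123 genes, against 8.30% of all windows and 8.46% of tested genes with a window. It was in 19.0% of called interferon-list genes, but in 22.2% of list genes that were tested and not called. Called genes outside the lists held it in 11.4%, and the 8 class I genes in 0. A match is a description of these letters only, and no factor's binding was measured.

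No gene of the lists of other pathways was called. Over all genes tested 1.15% were called higher and 0.0139% lower, so 0 calls in lists of this size is near that share. The count was 0 for the MHC class II (10 tested), NF-kB and IκB (18), T cell receptor-induced (17), unfolded protein response (17), p53 target (13), immediate-early and handling stress (21), glucocorticoid-induced (11), BCL2 (13) and cholesterol synthesis (23) lists. Their medians lay between -0.073 and -0.0093 on the log2 scale, beside -0.0049 over all genes. The members of smallest p were H2-Ob, a class II chaperone (-0.65, SE 0.23), Bcl3, a nuclear IκB protein (-0.90, SE 0.29), Cd69, an early activation marker (0.30, SE 0.10), and Egr1, an immediate-early factor (0.12, SE 0.07). Aen, a p53-induced nuclease (0.16, SE 0.07), Psat1, of serine synthesis (-0.17, SE 0.10), Klf9, a glucocorticoid-induced factor (-0.77, SE 0.37), Pmaip1, a death-promoting BCL2 protein (-0.27, SE 0.14), and Sqle, of sterol synthesis (-0.22, SE 0.12), led theirs. Nfkbid was at 32.0 CPM in control replicate 2 among controls at 28.5 to 37.1, and at 113 and 184 in the high transgenics against 305, 237 and 197 in the low ones. The 2 high transgenics were thus the lowest of the 5, but the difference was not called (-0.45, SE 0.19, edgeR adjusted p = 0.80).

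Genes of thymocyte stages gave 1 call, which is near the share of 1.15% called higher over all genes tested. None of 26 double-positive genes was called (median 0.07), none of 10 double-negative genes (median -0.15), and of 26 genes of mature single-positive cells only H2-Q7, a class I gene counted above. That call was lost with sex added and without any 1 of control replicate 2 and the 5 transgenic libraries. The summed double-positive genes were slightly higher in each high library within genotypes, at 23522 CPM in control replicate 2 against 18731 to 22921 in low controls and at 19289 and 19834 in the high transgenics against 18778 to 19256 in low ones. Rag1, the recombinase subunit, was at 1132 CPM in control replicate 2 and 554 and 539 in the high transgenics against 434 to 1153 in low libraries (0.23, SE 0.22). Ccr7, a receptor of maturing cells, was at 17.6 to 35.5 CPM against 13.7 to 39.6 (-0.06, SE 0.21). The 30 proliferation genes were all below 0 in the fit, from -0.24 to -0.00067 with a median of -0.20, and none was called. Their summed level was 3871 CPM in control replicate 2 against 4151 to 5485 in low controls, and 5830 and 7492 in the high transgenics against 6617 to 8043 in the low ones. Ccnb1, the mitotic cyclin, had the smallest p of the list (-0.24, SE 0.11, edgeR adjusted p = 0.80). With sex added 1 gene of the 30 was called lower.

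**Figure D4:**
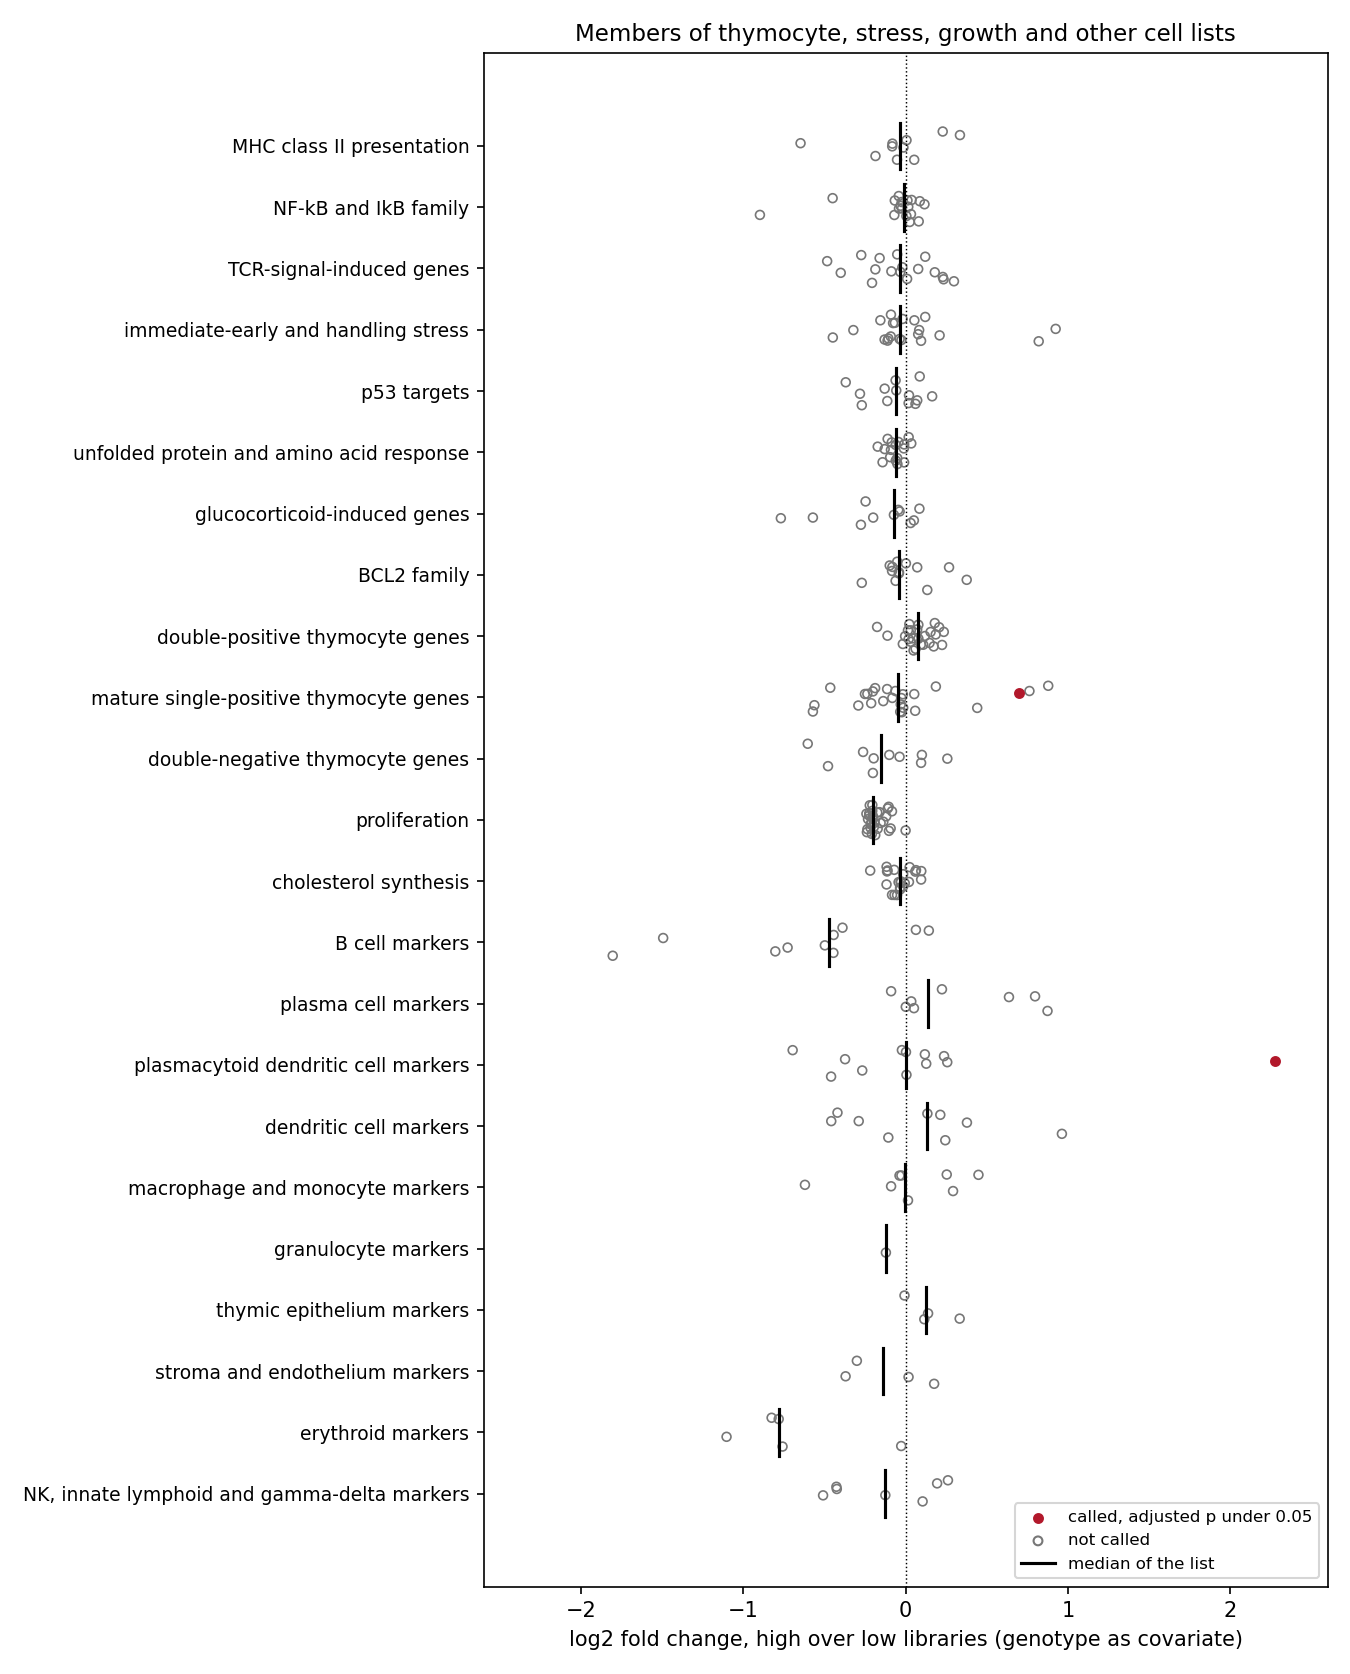
Log2 fold change of high over low libraries (x axis) for tested members of the lists outside the interferon response (y axis), with genotype as covariate; filled red points were called, open points were not, and black bars mark medians. The called points are H2-Q7 in the mature thymocyte list and Bst2 in the plasmacytoid dendritic cell list, and the 30 proliferation genes lie just below 0.

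Summed markers of other cells that a sort could carry along overlapped between high and low libraries of both genotypes together in each list, but 2 lists kept an order within both genotypes. Plasmacytoid dendritic cells, known for high interferon output, had a summed marker level of 2196 to 2456 CPM in high and 1986 to 2360 in low libraries, most of it from Ccr9, which thymocytes also express, and only Bst2, itself an interferon target, was called of 12 tested. Within genotypes this sum was higher in each high library, at 2456 CPM in control replicate 2 against 2176 to 2360 in low controls and at 2365 and 2196 in the high transgenics against 1986 to 2176 in low ones. Ccr9 alone kept this order in controls (2079 against 1851 to 2013 CPM) but not in transgenics (1928 and 1780 against 1625 to 1802). The sum includes Bst2, and the order without Bst2 was not tested. Siglech, the defining surface receptor of plasmacytoid dendritic cells, was at 0.376 CPM in control replicate 2, 2.00 and 1.199 in the high transgenics and 0.107 to 2.90 in low libraries (-0.27, SE 0.39). Summed markers of dendritic cells were at 10.5 to 32.5 CPM in high and 7.81 to 29.3 in low libraries, those of macrophages at 27.6 to 50.4 and 22.8 to 50.5. Those of B cells were at 411 to 697 CPM against 387 to 648, those of plasma cells at 64.9 to 193 against 54.6 to 178, and those of NK and innate lymphoid cells at 573 to 911 against 535 to 947. Gene by gene, 2 of 10 tested B cell markers were above 0 in the fit, with a median log2 difference of -0.47. Of 8 tested plasma cell markers 7 were above 0 (median 0.14), and no gene of either list was called. Granulocyte (7.73 to 8.18 against 8.11 to 11.5 CPM), thymic epithelial (7.11 to 9.01 against 6.26 to 8.49), stromal (212 to 214 against 199 to 219) and erythroid (7.59 to 31.0 against 8.30 to 132) markers gave 0 calls. In these lists only 1 of 10, 4 of 12, 4 of 12 and 5 of 9 genes were tested. The 5 tested erythroid genes were all below 0 in the fit (median -0.78). With 1.15% of all genes called higher, 0 calls among so few says little about these cells. The granulocyte sum was lower in each high library within genotypes, at 7.73 CPM in control replicate 2 against 8.11 to 11.5 in low controls and at 7.75 and 8.18 in the high transgenics against 8.22 to 9.16 in low ones. The granulocyte genes Ltf and Elane, the epithelial gene Cldn3 and the stromal genes Dcn and Lum were at 0 in all 11 libraries. Outside these lists, the lambda light chain genes Iglc1 and Iglv1 were called higher (log2 2.04 and 2.27); Iglc1 was at 3.28 and 2.69 CPM in the high transgenics and 0.769, 0.503 and 0.809 in low ones but at 0.0376 in control replicate 2, and neither was called with sex added. The part of these cells in the difference was not tested beyond these values.

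The high control and the high transgenics could also be compared with the low libraries of their own genotype, and these comparisons share no library. Within controls (1 high, 5 low) 83 genes were called higher, or 0.631% of 13150, and within transgenics (2 high, 3 low) 43, or 0.325% of 13232. All 83 control calls were above 0 in transgenics, and so were, in controls, the 37 transgenic calls that were tested there. Across all genes 48.3% and 48.0% were above 0. Called in both were 28 genes, 33.7% of the control calls and 65.1% of the transgenic calls, and 22 of the 28 were in the interferon lists. Both comparisons were split on Ifit1, so the shared direction of its fellow interferon genes describes the split. The spread around control replicate 2 is taken from the low controls, since that group has 1 member.

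The size of the difference varied between the high libraries. The 103 called interferon genes were picked by these same libraries, so their folds describe the split. Over the 103 called interferon genes, control replicate 2 had a median fold of 2.92 above the low libraries of its genotype, while transgenic replicates 3 and 5 had 2.97 and 1.97. Control replicate 2 showed the highest fold for 55 genes, transgenic replicate 3 for 47 and transgenic replicate 5 for 1. By level the order was another: transgenic replicate 3 had the highest CPM for 98 of the 103. Mx1, for example, stood 30.3-fold above the low controls in control replicate 2, and 19.6-fold and 8.18-fold above the low transgenics in transgenic replicates 3 and 5. For Irgm1 these folds were 3.30, 2.68 and 1.97. The low transgenics were above the low controls for both genes, so folds in transgenics and in controls are taken over unlike levels.

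**Figure D5:**
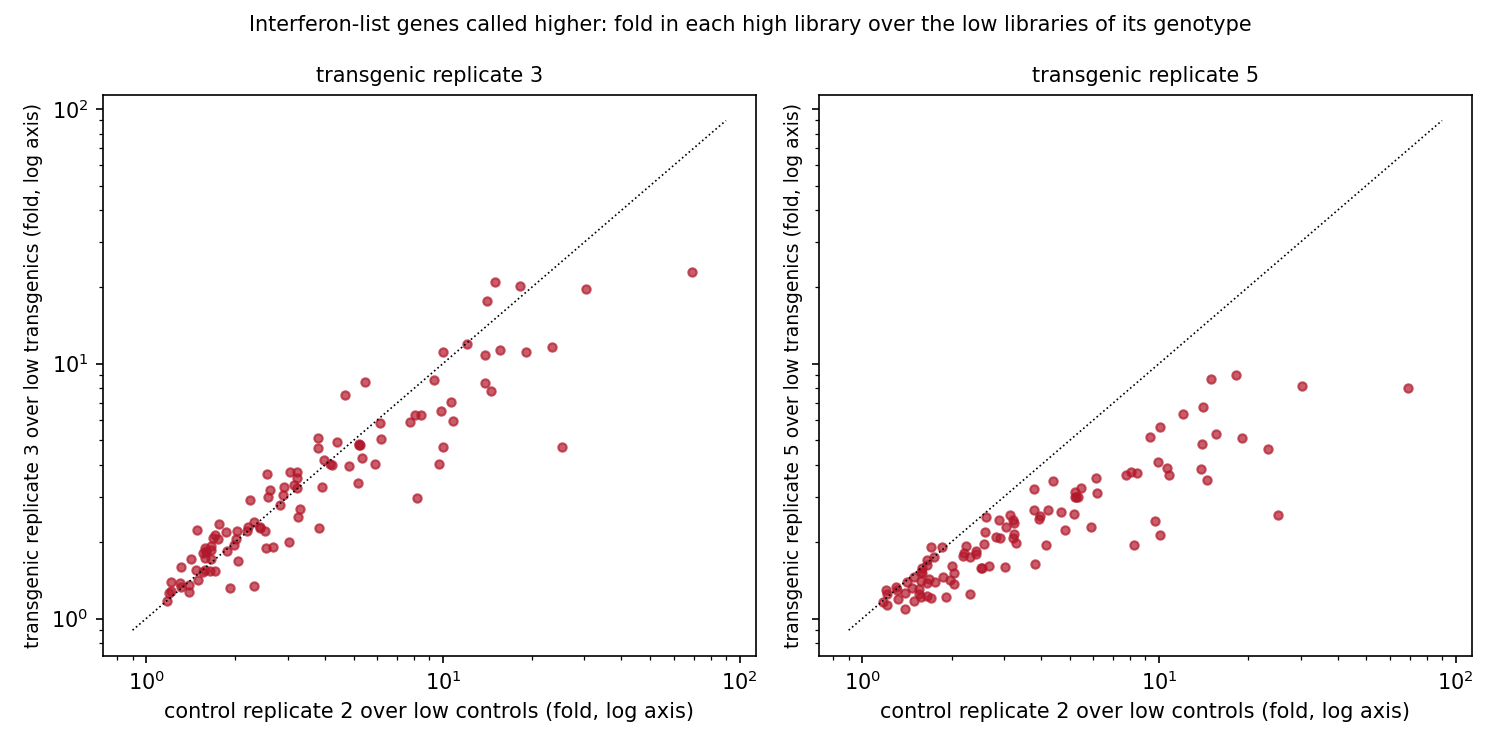
Fold above the low libraries of the same genotype for the 103 called interferon genes, 1 point per gene, control replicate 2 (x axis) against transgenic replicate 3 (left) and 5 (right), log axes, with the dotted line at equal folds. Replicate 3 lies around the line, with medians of 2.97 and 2.92, and replicate 5 mostly below it, with a median of 1.97.

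A test of whether the difference between high and low libraries itself differed between genotypes called 0 of 14384 genes (0.0%). At an unadjusted p under 0.05 there were 222 genes, or 1.54%, and limma-voom also called 0. With control replicate 2 as the only high control, this does not show that the genotypes respond alike.

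Below the 50 CPM line, Ifit1 still ranged from 1.75 to 17.6 CPM over 13 libraries, the 8 low ones and the 5 knockout-labelled ones, which had 3.86, 3.50, 3.27, 7.85 and 8.23. The change of each gene per doubling of Ifit1, with genotype as covariate, was called for 2 of 15221 genes, or 0.0131%: Mx2, a paralogue of Mx1 (slope 0.93 on the log2 scale, SE 0.12, edgeR adjusted p = 0.0261), and Rsad2 (1.39, SE 0.20, edgeR adjusted p = 0.0325). Rtp4 (0.86, SE 0.13, edgeR adjusted p = 0.0639), Usp18 (0.75, SE 0.12, edgeR adjusted p = 0.0639) and Slfn1 (0.88, SE 0.14, edgeR adjusted p = 0.0639) were among the 7 genes of smallest p and were not called. Of 160 interferon-list genes 106 had a slope above 0, with a median of 0.063, while 49.4% of all genes did. Among the 103 of them called between high and low libraries, 85 had a slope above 0, with a median of 0.14. The calls of Mx2 and Rsad2 were lost with sex in the fit, among males alone, in the low control and transgenic libraries alone, and without any 1 of transgenic replicate 2 and knockout-labelled replicates 2, 3, 4 and 5.

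By correlation with Ifit1 over these 13 libraries after genotype means were removed, the most similar of 12685 genes was Mx2 (r = 0.92). Slfn1, Usp18, Rsad2 and Oasl2 were among the first 10 (r = 0.90, 0.90, 0.90 and 0.89), and so were Mrm3, Chtf8, Dhx8 and Edf1 (0.92, 0.91, 0.90 and 0.90), which no interferon list held and which were not called between high and low libraries. The points share their libraries and depths, so the order is a description.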

How the data were processed

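Total RNA of sorted CD4+CD8+ thymocytes was made into stranded libraries (KAPA), per the labels' protocols. Per the submitters' processing notes, the authors used Bowtie 1.0.0 and SAMtools 0.1.18 with GRCm38; their counting program is not stated there. For each gene the authors deposited an estimated count (expected count), in which reads shared between transcripts or genes give fractions; 58.7% of those above 0 were whole within 1e-06 counts. The authors also deposited TPM values, scaled to 1000000 per library, which entered no test. Symbols came from GENCODE M21 (46005 of 46517 identifiers; the others held 0.171% of counts). RefSeq windows gave promoters.

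Rounded estimated counts were fitted in R 4.3.3 with edgeR 4.0.16 (robust quasi-likelihood, TMM, filter by expression within genotype), with genotype and the high or low class as terms and 8 residual degrees of freedom over 11 libraries. The common biological coefficient of variation was 0.125. P-values are two-sided and adjusted by Benjamini-Hochberg over all genes tested; the standard error (SE) is the log2 fold change over the square root of F. Numbers of the form (1.38, SE 0.10) are log2 fold changes of high over low libraries. The slope fit used log2(CPM + 0.5) of Ifit1. The model was tested on simulated data. Each library is 1 mouse by its identifier; chi-square per degree of freedom between libraries of a group was 4.47 to 80.1. Alternatives included DESeq2 1.42.0, limma-voom 3.58.1, other scalings and filters, sex, and each library left out.

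The members, gene lists and tests were chosen with earlier results of these data known. Named are Ifit1, Nfkbid, from each interferon list the 4 members of smallest p, from each other list 2, and the 7 largest changes each way outside the interferon lists (mean of at least 1 CPM). Genes named beyond these were chosen after their values were seen. Some genes that these rules would name are not reported here.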

Additional observations from a re-analysis of the deposited data

Results flagged for a closer look

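In 98 groups of 5 libraries (named genes in low controls and in knockout-labelled libraries), 10 had a sample far from the other 4. Chance flags about 1 group in 20, but these groups share libraries and are not independent. The number of flags can therefore not be judged against that rate. Among low controls, control replicate 6 had the lowest Herc6, at 32.9 CPM against 39.6 to 41.9 CPM. Control replicate 1 had the highest Irgm1, at 25.1 CPM against 19.9 to 21.3 CPM, and control replicate 4 the lowest Ogfrl1, at 0.835 CPM against 1.06 to 1.12 CPM. Among knockout-labelled libraries, replicate 5 stood above the others in 4 genes that were called higher in the high libraries. It had 6.31 CPM of Ifih1 against 3.93 to 4.60 CPM, 5.06 CPM of Dhx58 against 3.37 to 3.82 CPM, 61.5 CPM of Zbp1 against 47.3 to 50.2 CPM, and 6.57 CPM of Hsh2d against 4.04 to 4.57 CPM. The same library had the highest Ifit1 of its group, 8.23 CPM, far under the 50 CPM line. Knockout-labelled replicate 4 had 10.97 CPM of Ncf4 against 0.687 to 1.11 CPM, and the lowest Gbp9, at 69.0 CPM against 87.1 to 94.0 CPM. Knockout-labelled replicate 1 had the lowest Ifit2, at 47.5 CPM against 53.6 to 55.7 CPM.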

How the results depend on the processing

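The number of genes called between high and low libraries, 167, was 101 with genotype left out, 80 among males, 43 among transgenics and 84 among controls, and 109 (without control replicate 2) to 176 (without control replicate 6) with single libraries left out. It was 205 with DESeq2, 165 with limma-voom and 122 with sex added. The 103 interferon-list calls became 40 among males, 25 among transgenics and 66 among controls, and 76 to 105 with single libraries left out. The 3 fits on a subset hold fewer samples; the cause of the other shifts was not tested. The 2 slope calls became 0 with sex added, 5 (all lower with rising Ifit1) in the knockout-labelled libraries alone, 0 in low control and transgenic libraries, 0 among males, and 0 to 5 with single libraries left out. The difference between genotypes called 0 under each alternative run. Same-numbered control and transgenic samples did not deviate together (correlations from -0.15 to 0.05, 0 controls correlating best with their own number). Some of these pairs differ in sex and in class, so the correlations cannot show whether litters, cages or days were shared. With the replicate number as a block the counts were 152, 88 interferon-list genes and 8 slope genes. Of 2383 values of 89 named genes under alternatives, 0 turned sign while called, 116 lost and 10 gained their call. Without each single library in turn 98 of the 167 kept their call, 74 of them interferon-list genes, and 17 kept it under all 27 alternatives. With 1 high control, its spread is taken from the low libraries, and genes under about 1 CPM are limited by counting error.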

Other observations

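Besides 144 protein-coding genes, the 167 called genes included unannotated or noncoding transcripts. On chromosome 6 a group of them lies beside Samd9l, an antiviral gene (3372257 to 3399572, GENCODE M21, GRCm38), which was at 211 to 369 CPM in high and 90.7 to 157 CPM in low libraries (1.16, SE 0.17). Its call was lost with sex added, among males alone, among transgenics alone and without control replicate 2. Gm20559 (3333194 to 3346128) was at 129.9 to 178 CPM in high and 54.3 to 71.1 CPM in low libraries (1.19, SE 0.09). Gm43197, which lies inside its bounds (3336772 to 3339354), was at 56.1 to 83.5 against 18.5 to 33.8 CPM (1.25, SE 0.12), and Gm43196 (3325742 to 3327855) at 6.21 to 10.02 against 2.23 to 3.99 CPM (1.41, SE 0.18). In all 4 the high and low libraries did not overlap. Reads in overlapping models could be split between them, so the single values are uncertain.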
